A study of Mus musculus with 6 samples.

Results

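The cells described here are mouse intestinal enterocytes that carried little mRNA of the endoplasmic reticulum (ER) chaperone BiP, encoded by Hspa5 (ENSMUSG00000026864), after 13 h in tunicamycin. They were chosen as cells of the 2 libraries with 13 h tunicamycin that the deposited cell names class as enterocytes, in which mitochondrial transcripts made up at most 25% of the unique molecular identifiers (UMIs, counts of single mRNA molecules) and Hspa5 made up under 0.2% of them. These weak cells numbered 129 in replicate 1 and 124 in replicate 2, or 253 of the 1412 enterocytes of those libraries and of the 5026 cells kept in the series. They were compared within each library with the 220 and 230 strong cells, in which Hspa5 made up at least 0.6% of UMIs, and 337 and 372 middle cells lay between the limits. Hspa5 itself chose the cells, so its values are a description only. The question was which other transcripts differ between enterocytes of 1 treated culture that hold little or much BiP mRNA.

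The series holds 6 single-cell libraries, 2 described as biological replicates for each of 3 groups. All come from monolayers grown out of intestinal spheroids on coated inserts, from mice that carried Rosa26-floxed STOP-Cas9 and cmv-cre (B6), the latter a Cre known to act in most tissues. The 13 h group received DMSO, the solvent, on differentiation day 3 and tunicamycin (Tm) at 0.5 µg per ml 12 h later. The 25 h group received the same dose from the start, the DMSO group received solvent only, and all were harvested on day 4. All groups thus share the strain, the culture and the removal of dead cells before loading, the last of which limits what the libraries show of cells that died. The labels give small intestine as the tissue, while the growth protocol speaks of colonic spheroids.

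Tunicamycin blocks the first step of N-glycan assembly, so glycoproteins misfold in the ER. Cells answer with the unfolded protein response, which runs through the ER membrane sensors ATF6, IRE1 (encoded by Ern1) and PERK (encoded by Eif2ak3). ATF6 and the IRE1 product XBP1 raise transcription of chaperones and of the machinery that degrades misfolded proteins, while PERK phosphorylates eIF2alpha, which slows translation and favours the factor ATF4 with its target CHOP (encoded by Ddit3) and genes of amino acid supply. Enterocytes are the absorptive cells of the gut lining, with a brush border of microvilli, digestive enzymes and lipid uptake.

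Promoters of Hspa5 and of genes that were lowest in the weak cells were searched for the ER stress response element (ERSE), the motif that ATF6 is known to bind with NF-Y and which was spelled here as CCAAT and CCACG with any 9 bases between them, on either strand. They are shown because Hspa5, the gene that chose the cells, shares this element with several of the genes described below. In the RefSeq promoter table of GRCm38.p6, which runs from 250 bases before to 50 after each gene's start, 39 of 32851 promoters (0.119%) held an exact match. Of the 15 genes lowest in the weak cells 12 had a promoter in the table and 5 of those held a match. Of the 15 highest genes 11 had a promoter in the table and 0 held a match. At the rate over the whole table so few promoters would rarely hold one, so this 0 is no contrast. The lowest genes were also ranked in cells chosen by Hspa5, which holds the element itself. The windows run 5′ to 3′ on the gene's strand, with the ERSE in capitals and 20 bases on either side.
Hspa5: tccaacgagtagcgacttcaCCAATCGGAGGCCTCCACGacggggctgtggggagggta
Creld2: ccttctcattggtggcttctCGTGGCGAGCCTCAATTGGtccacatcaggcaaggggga
Syvn1: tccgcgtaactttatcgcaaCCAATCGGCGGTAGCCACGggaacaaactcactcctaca
Hsp90b1: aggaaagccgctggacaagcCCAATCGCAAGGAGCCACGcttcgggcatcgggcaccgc
Hsp90b1: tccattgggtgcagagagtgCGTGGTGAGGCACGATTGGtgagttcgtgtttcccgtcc
Derl3: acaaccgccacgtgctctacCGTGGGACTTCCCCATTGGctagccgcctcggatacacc
Dnajc3: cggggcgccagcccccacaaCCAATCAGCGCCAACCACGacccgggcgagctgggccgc
The Hspa5 window is chr2:34772005-34772063 on the plus strand, and its element begins 65 bases before the gene's start. The others are chr15:88819500-88819558 (Creld2, plus strand), chr19:6046512-6046570 (Syvn1, plus), chr10:86705618-86705676 and chr10:86705513-86705571 (Hsp90b1, minus), chr10:75893222-75893280 (Derl3, plus) and chr14:118937807-118937865 (Dnajc3, plus). In Creld2, in Derl3 and in the second Hsp90b1 window the element reads in the opposite orientation, as CGTGG followed by ATTGG.

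Herpud1 held no exact ERSE but a match to the related ERSE-II (ATTGG and CCACG with any 1 base between them, in 12 promoters or 0.0365% of the table), at chr8:94386357-94386407 on the plus strand. It is shown with the Nupr1 window, chr7:126625553-126625602 on the minus strand, which holds a match to the composite element bound by ATF4 with C/EBP factors (TGATG, any base, AA, any base and C, in 1.06% of promoters, read on both strands), here in the opposite orientation. Of the 7 genes of the ATF4 branch searched, all with a promoter in the table, 2 held an exact match to this spelling. The other 5 (Ddit3, Asns, Chac1, Mthfd2 and Atf5) held no exact match in this window. Asns and Chac1, the latter in the opposite orientation, did hold the same letters without the closing C, which the search did not count. The tally therefore does not show that their promoters lack the element.
Herpud1: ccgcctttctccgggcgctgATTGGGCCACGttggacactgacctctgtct
Nupr1: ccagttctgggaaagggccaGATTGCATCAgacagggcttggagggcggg
Herpud1 and Trib3 held the composite element too, and no 2 matches in these windows overlapped. A match describes the letters only, and binding was not measured.

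Hspa5 filled a broad, unbroken range in the treated enterocytes. The median weak cell held 0.106% (replicate 1) and 0.132% (replicate 2) of its UMIs as Hspa5, the median strong cell 0.809% and 0.836%, and the median DMSO enterocyte 0.0112% in both libraries. The weak cells made up 18.8% (95% exact binomial interval 15.9 to 21.9) and 17.1% (14.4 to 20) of 13 h enterocytes, intervals that cover counting error only. The highest weak cells stood at 0.198% and 0.1999% and the lowest middle cells at 0.2001% and 0.2004%. The highest middle cells reached 0.599% in both libraries and the lowest strong cells 0.6007% and 0.6004%. At the same limit 99.8% and 98.9% of DMSO enterocytes counted as weak, as did 36.6% and 34.0% of enterocytes at 25 h. Among other classes at 13 h, 11 of 77 and 12 of 75 goblet cells and 9 of 17 and 9 of 20 cells named tuft fell below 0.2%.

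**Figure D1:**
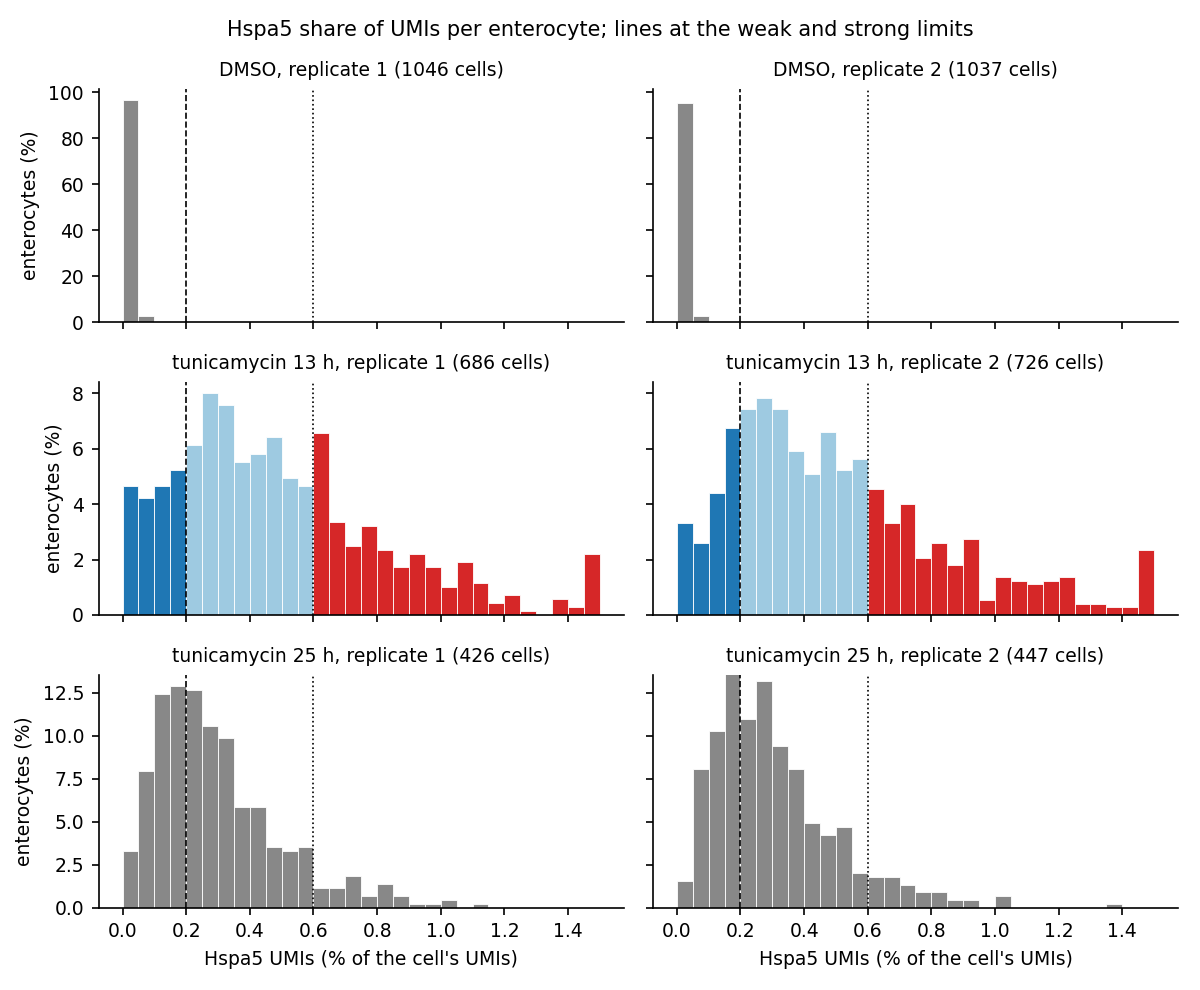
Histograms of the Hspa5 share of UMIs per enterocyte in steps of 0.05%, in each of the 6 libraries, as percent of enterocytes (y axes differ between rows); the last step also holds all higher cells. The dashed line at 0.2% and the dotted line at 0.6% bound the weak (dark blue) and strong (red) cells at 13 h, which form the 2 ends of 1 broad distribution.

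As sums, the weak cells held 1049 and 1172 CPM of Hspa5 (counts scaled to a total of 1000000), the strong cells 9137 and 9320.5 and DMSO enterocytes 160.2 and 216. The weak sums thus lay above both DMSO sums, although 32 and 24 of the weak cells were at or below the 95th percentile of DMSO enterocytes (0.0447%) and 5 and 2 had no Hspa5 UMI. Weak cells held somewhat fewer UMIs than strong cells, with medians of 14685 and 15489 against 16284.5 and 17681, and fewer mitochondrial UMIs, 8.39% and 7.22% against 9.02% and 9.67%. The summed depth was 2072319 and 2038661 UMIs for weak, 3940913 and 4264351 for strong and 17429023 and 16755382 for DMSO enterocytes. The 2 libraries with 13 h shared 2 cell barcodes, and 2 weak cells had a barcode that also occurred in another library. Scrublet called 27 doublets in the series (0.527%) and none among weak or strong cells.

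The enterocyte label was checked on its markers. Of 21 enterocyte markers, 16 were detected in each weak sum, among them Krt20 (1052 and 956 CPM), Vil1 (441 and 407), Car1 (1259.9 and 1715) and Sis (137 and 126). Fabp1 and Lct of small intestine and Aqp8 of colon had no UMI in the weak sums, so these markers did not settle the region of gut. Markers of other lineages stayed low: the 11 tuft markers summed to 8 and 5 UMIs, the 10 immune markers to 11 in each sum, and Ptprc, which marks all leukocytes, had none. Goblet markers were the exception, at 0.399 and 0.184% of UMIs in weak, 0.241 and 0.300% in strong and 0.395 and 0.388% in DMSO sums, while Muc2, the gel-forming mucin, stood at 4.32 and 0.972 CPM in weak and 3.11 and 5.44 in strong sums (log2 fold change -0.71, adjusted p = 0.425).

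Between weak and strong cells, transcripts of the ER folding and quality control machinery were low in the weak cells, while nearly all ribosomal protein mRNAs were high in them. Of 9699 genes tested, 927 were lower in weak cells (9.56% of tested genes) and 823 higher (8.49%) (edgeR quasi-likelihood test with the library as a block, adjusted p under 0.05). DESeq2 called 393 lower and 257 higher. The median log2 fold change over all tested genes was 0.01. Gene values below are CPM in sums of cells, replicate 1 then replicate 2, on a common scale except in the steps of Hspa5. Fold changes are log2 with their standard error. The p-values rest on 2 libraries a class, the smallest number that gives a spread, and since mRNA levels are relative to all UMIs of a cell they do not show total mRNA per cell.

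Chaperones came first. Of 23 tested ER chaperones and folding enzymes, Hspa5 left out, 22 were lower in weak cells and none higher, with a median log2 fold change of -1.30. Their summed level was 0.732 and 0.898% of UMIs in weak, 1.45 and 1.46% in middle, 1.93 and 2.04% in strong and 0.294 and 0.302% in DMSO enterocytes, so the weak sums lay between DMSO and the rest without overlap. Hsp90b1, which encodes the ER form of HSP90 (GRP94), stood at 702 and 942 CPM in weak and 3348 and 3454 in strong sums. Its log2 fold change was -2.05 ± 0.09 (adjusted p = 2.35e-14). Creld2, an ER-resident protein raised by ER stress, had the lowest value of all named genes, 89.3 and 91.9 against 508 and 534 CPM (-2.52 ± 0.09, adjusted p = 3.85e-16). Both genes hold the element shown above.

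Further chaperone genes followed the same order. Manf, a secreted ER stress protein, was at 595 and 652 CPM in weak and 2382 and 2473 in strong sums (-1.96 ± 0.08), and the disulfide isomerase Pdia4 at 103 and 133 and 452 and 498 (-2.0 ± 0.09). Sdf2l1, a partner of BiP, stood at 279.8 and 417 against 1111 and 1173 CPM (-1.72 ± 0.10). The lectin chaperone gene Calr was abundant in both, 1449 and 1762 and 3548 and 3656 CPM, with a smaller gap (-1.16 ± 0.08). For Hyou1, which exchanges the nucleotide of BiP, and for the BiP co-chaperones Dnajc3 and Dnajb9 the log2 fold changes were -1.92, -1.65 and -1.49, and for the isomerase Pdia6 -1.44. All of these passed the test, and in each the weak sums lay below both strong sums.

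ER-associated degradation, which hauls misfolded proteins out to the proteasome, was lower in most of its genes. Of 23 tested genes 16 were lower in weak cells and none higher (median -0.67), and the summed level was 0.225 and 0.237% in weak against 0.439 and 0.484% in strong sums. Syvn1, the ubiquitin ligase HRD1 of that pathway, stood at 61.4 and 59.3 CPM in weak and 266 and 314 in strong sums (-2.25 ± 0.10, adjusted p = 2.35e-14). Its adaptor Sel1l was at 100.3 and 121 and 344 and 342 (-1.63 ± 0.09) and Herpud1, which sits in the same complex, at 296 and 233 and 787 and 959.5 (-1.71 ± 0.10). Derl3, a derlin of the ER membrane channel, was at 0.474 and 0.554 CPM in DMSO enterocytes and reached 22.6 and 26.7 in weak and 82.7 and 104 in strong cells (-1.91 ± 0.15). Selenos, which recruits the extracting ATPase, was lower by the same test (log2 fold change -1.39). The 25 proteasome subunits, the end of that route, had no call in either direction with edgeR or DESeq2 (2 at an unadjusted edgeR p under 0.05), and their median was -0.01.

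Of 31 tested genes of ER translocation and vesicle transport, 24 were lower in weak cells and none higher (median -0.68). Sec61a1, the pore of the translocon, stood at 119 and 139 against 275 and 289 CPM (-1.12 ± 0.09), the signal peptidase subunit Spcs2 at 202 and 227 against 468 and 482 (-1.14 ± 0.08), and the cargo receptor Surf4 had a log2 fold change of -0.92. The COPII coat gene Sec24d was at 12.0 and 15.1 CPM in weak, 45.1 and 47.1 in strong and 7.77 and 11.1 in DMSO sums (-1.76 ± 0.18). Atp2a2, which encodes the pump that fills the ER with calcium, was at 162 and 135 against 406 and 415 CPM (-1.46 ± 0.09) and was not on a list.

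Among 24 tested N-glycosylation genes, the pathway that tunicamycin blocks, 13 were lower and 1 higher in weak cells (median -0.45). Ostc, Rpn1 and Stt3a, subunits of the transferase that places the glycan, had log2 fold changes of -1.05, -1.06 and -0.97, and the glycoprotein folding sensor Uggt1 -1.06. Dpagt1, which encodes the enzyme that tunicamycin inhibits, was at 26.4 and 23.8 CPM in weak, 47.4 and 45.7 in strong and 17.3 and 14.5 in DMSO sums (-0.88 ± 0.15, adjusted p = 8.71e-05). Its weak sums lay between the other groups.

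**Figure D2:**
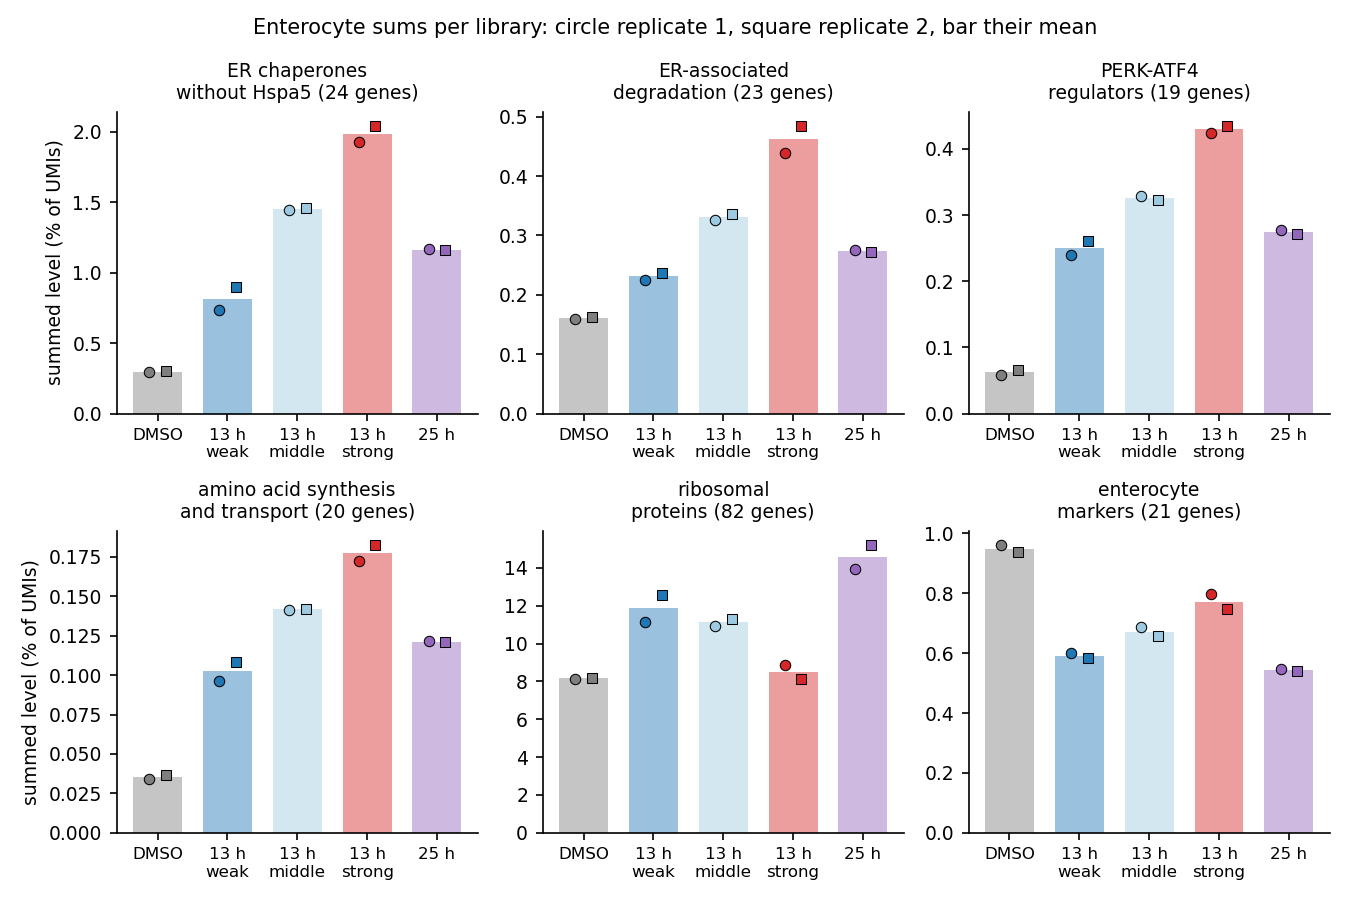
Summed level of 6 gene lists in enterocyte sums, as percent of UMIs without Hspa5, in DMSO, the 3 Hspa5 classes at 13 h, and 25 h; circles are replicate 1, squares replicate 2 and bars their mean. ER chaperones climb from DMSO (0.294% and 0.302%) through weak to strong cells, while ribosomal proteins are higher in weak (11.2 and 12.6%) than in strong cells (8.89 and 8.15%).

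Most of the sensors did not pass the test. Of 13 tested sensors and regulators of the response 4 were lower in weak cells and none higher (median -0.50). Atf6 was at 33.1 and 29.2 CPM in weak and 73.1 and 80.7 in strong sums (-1.30 ± 0.13, adjusted p = 7.46e-08), against 29.0 and 29.2 in DMSO, so its weak sums were close to DMSO. Xbp1 differed from both, with 189 and 216 CPM in weak, 340.5 and 347 in strong and 68.8 and 73.0 in DMSO sums (-0.76 ± 0.08 against strong). Creb3l2, a membrane-bound factor of the ATF6 family, had a log2 fold change of -1.32 ± 0.24. Ern1 (-0.50 ± 0.21, adjusted p = 0.109), Eif2ak3 (-0.54 ± 0.23, adjusted p = 0.117) and Qrich1, a factor of late ER stress (-0.24 ± 0.13, adjusted p = 0.225), did not pass. The first 2 of these passed with the lowest and highest 25% of each library's cells in place of the fixed limits, at -0.66 and -0.66.

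Genes of the PERK branch were lower in weak cells too. Of 18 tested genes of the ATF4 and CHOP network 11 were lower and 1 higher (median -0.48), at a summed 0.240 and 0.260% of UMIs in weak, 0.424 and 0.435% in strong and 0.0581 and 0.0664% in DMSO enterocytes. Ddit3 had the lowest fold change of the list, 751 and 699.6 CPM in weak against 1957 and 1910.5 in strong sums (-1.41 ± 0.08, adjusted p = 1.72e-12), with 65.2 and 88.8 in DMSO. Atf4 was at 272 and 303 and 378 and 373 CPM (-0.38 ± 0.08, adjusted p = 0.00113) and Trib3, a pseudokinase that acts back on ATF4, at 70.6 and 84.1 and 146 and 145 (-0.91 ± 0.10). The stress factor genes Atf3, Atf5 and Nupr1 had log2 fold changes of -0.97, -0.67 and -0.48, and Ppp1r15a, the subunit that leads a phosphatase back to eIF2alpha, -0.49. Without replicate 1 the calls of Atf3, Atf5, Nupr1 and Ppp1r15a were lost (log2 fold changes -0.69, -0.25, -0.38 and -0.59), and without replicate 2 that of Ppp1r15a (-0.44).

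Chac1, which breaks down glutathione and is a target of ATF4 and CHOP, did not pass: its sums were 68.6 and 49.6 CPM in weak, 62.2 and 63.2 in strong and 7.82 and 11.3 in DMSO enterocytes (-0.08 ± 0.12 against strong, adjusted p = 0.725). Mthfd2, of mitochondrial one-carbon metabolism, stood at 105 and 129, 134 and 131 and 21.0 and 21.3 in the same order (-0.17 ± 0.10, adjusted p = 0.239). The weak and strong sums of Chac1 overlapped, the weak sums of Mthfd2 lay below the strong ones, and all were above DMSO. With weak cells under 0.1% and strong cells at or above 0.8% Hspa5, Mthfd2 was lower in weak cells (-0.62, adjusted p = 0.00639 in edgeR's test), and without the 13 h cells below 0.05% it stood at 0.0604, so its value moved with the threshold. Without replicate 2 of 13 h it was also called lower (-0.37, adjusted p = 0.0420 in the same test). Of 19 tested genes of amino acid synthesis and transport, 11 were lower in weak cells and none higher (median -0.46). Asns, asparagine synthetase, was at 97.9 and 106 against 162 and 177 CPM (-0.73 ± 0.09), and the transporter genes Slc3a2, Slc7a11 and Slc7a1 had log2 fold changes of -1.19, -1.40 and -0.92, the last of which lost its call without replicate 2 (-0.83). Of 20 aminoacyl-tRNA synthetases, which load amino acids on tRNA, 10 were lower and none higher (median -0.44), with -1.22 for Wars, -1.08 for Eprs, -0.93 for Aars and -0.65 for Nars.

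**Figure D3:**
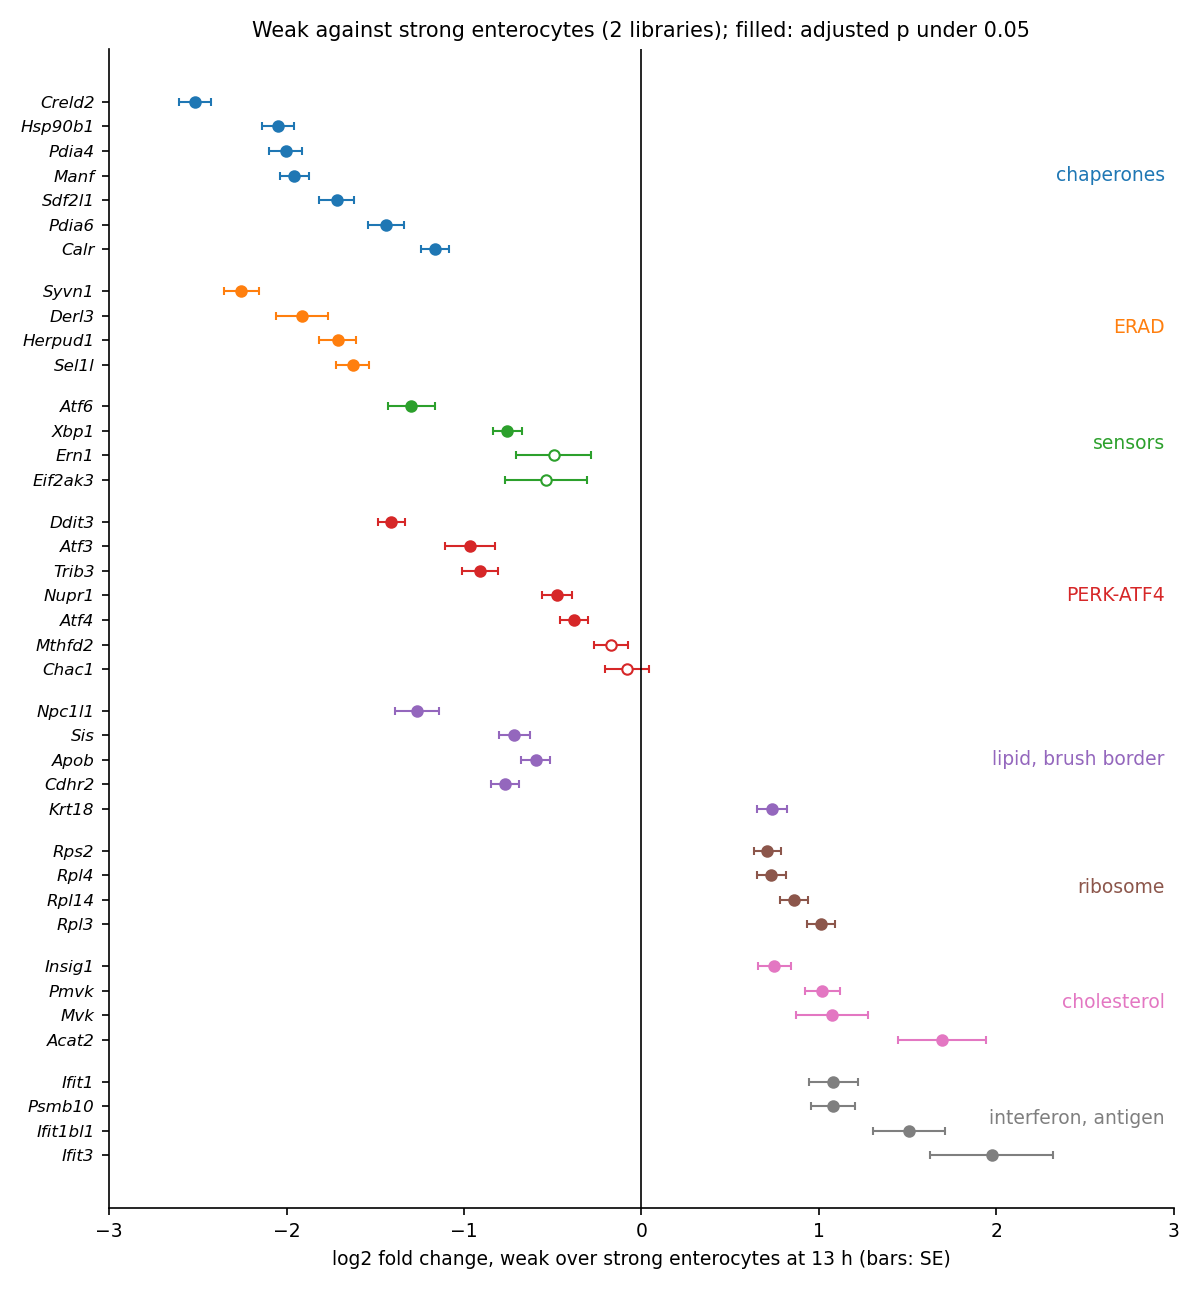
Log2 fold change of weak over strong enterocytes at 13 h for named genes, grouped by role; points are the edgeR estimates from 2 libraries, bars the standard error, filled points passed the adjusted p threshold of 0.05. Chaperone and degradation genes lie farthest to the left (Creld2 at -2.52), Chac1 and Mthfd2 near 0, and ribosomal, cholesterol and interferon genes to the right.

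Ribosomal protein mRNAs went the other way. Of 79 tested, 76 were higher in weak cells and none lower (median 0.46), and they summed to 11.2 and 12.6% of UMIs in weak, 10.9 and 11.3% in middle, 8.89 and 8.15% in strong and 8.15 and 8.15% in DMSO enterocytes. Rpl3 stood at 532 and 521 CPM in weak against 267 and 258 in strong and 284 and 299 in DMSO sums (1.01 ± 0.08, adjusted p = 7.67e-10). Rpl14, Rpl4 and Rps2 had log2 fold changes of 0.86, 0.73 and 0.71. Without replicate 2 the count was 38 and the median 0.30; without replicate 1 they were 66 of 80 and 0.60. Higher calls over all tested genes fell too with either library left out. The libraries also differed in how the excess was spread over cells. The median weak and strong cell of replicate 1 held 8.80% and 8.65% of UMIs as ribosomal protein mRNA, with upper quartiles of 15.3% and 10.4%. In replicate 2 the medians were 12.4% and 7.59%. Ribosomal protein genes have many near-identical processed copies in the genome, and no source used here says how reads shared with copies were counted.

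Translation factors went both ways. Of 20 translation factors 7 were higher and 5 lower in weak cells. Eef1g was at 405 and 443 CPM in weak against 243 and 249.6 in strong sums (0.79 ± 0.08) and Eef1a1, another elongation factor gene, at 3174 and 3596 against 2524 and 2202 (0.53 ± 0.08), whereas Eif3c, a subunit of the initiation factor eIF3, was at 216 and 247 against 357 and 353 (-0.61 ± 0.08). Cytosolic and mitochondrial chaperones also went both ways, with 3 higher and 3 lower of 10: Hspa8 (0.56 ± 0.08), Hsp90ab1 (0.54 ± 0.08) and the mitochondrial Hspe1 (0.62 ± 0.10) were higher, and the inducible Hsp90aa1 was lower (-0.46 ± 0.10; DESeq2 did not call it). Of 78 nuclear genes of oxidative phosphorylation 23 were higher and none lower (median 0.14), among them Cox7a2l (0.48) and Uqcr11 (0.42). With mitochondrial UMIs limited to 10% that count was 5 higher and 1 lower and DESeq2 called 6. Higher calls over all tested genes were 498 and 257 in these settings, against 823. Of the 13 transcripts of the mitochondrial genome 5 were lower, such as mt-Co1 (-0.31), beside the lower mitochondrial share of weak cells given above.

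Cholesterol synthesis genes were mostly higher in weak cells: 12 of 22 were higher and 1 lower (median 0.32). Pmvk, a kinase of the mevalonate pathway, stood at 127 and 149.8 CPM in weak, 68.1 and 69.1 in strong and 135 and 146 in DMSO sums (1.02 ± 0.10, adjusted p = 4.13e-08), so the weak sums lay in the DMSO range. Acat2, which makes acetoacetyl-CoA for the pathway, was at 22.6 and 19.0 against 6.48 and 6.39 (1.69 ± 0.25), Mvk had a log2 fold change of 1.07, and Insig1, which holds back the sterol-sensing factors, 0.75. The count fell to 4 with DESeq2, which called 257 higher over all tested genes, against 823 with edgeR. With either library left out the count fell too, as did the higher calls over all tested genes. Insig1 (0.59, without replicate 1) and Mvk (0.88, without replicate 2) then lost their calls.

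Interferon-induced genes were higher in weak than in strong cells, 6 of 15 and none lower (median 0.42), but the 2 libraries and the cells lowest in Hspa5 weighed on this count. Ifit1, which binds foreign RNA, stood at 86.9 and 58.3 CPM in weak, 36.8 and 32.2 in strong and 175 and 172 in DMSO sums (1.08 ± 0.14), and Ifit3 at 18.2 and 8.27, 3.37 and 3.31 and 33.1 and 34.0 (1.97 ± 0.35). The related Ifit1bl1, not on the list, was at 50.9 and 49.1 against 20.2 and 15.1 CPM (1.51 ± 0.20). The count was 1 higher and 1 lower without replicate 1, where Ifit3 lost its call (1.31), 3 without replicate 2, and 2 higher and 1 lower without the 13 h cells below 0.05% Hspa5. Higher calls over all tested genes fell too in these settings, from 823 to 708 without the cells below 0.05%. Psmb10, a subunit of the immunoproteasome, was at 71.5 and 72.9 against 33.2 and 35.2 CPM (1.08 ± 0.12), one of 2 higher and 3 lower among 13 antigen presentation genes. B2m, the light chain of MHC class I, was among the lower ones (-0.25 ± 0.07; not called by DESeq2).

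The highest fold changes in weak cells belonged to genes of low level, and some came from very few cells. Gsta1, a glutathione transferase with a near-identical neighbour Gsta2, stood at 60.0 and 84.1 CPM in weak, 9.85 and 13.0 in strong and 16.7 and 50.4 in DMSO sums (2.65 ± 0.20, adjusted p = 4.15e-10), and 5 cells held 52.8% and 75.1% of its weak UMIs; its call was lost when either library was left out. Of the Cd74 UMIs in the weak sums, 59.3% and 88.7% came from 1 cell each, in replicate 2 82.3% of Sprr1a, and in replicate 1 89.1% of Agr2 and 63.8% of 2210407C18Rik. Their log2 fold changes (2.51, 1.86, 1.71 and 1.67) therefore rest largely on 1 cell in 1 or both libraries. Sprr1a lost its call without replicate 2 (1.62), and Agr2 and 2210407C18Rik without replicate 1 (0.01 and 0.08).

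Also among the 15 highest genes, beside Ifit1bl1, were Ifitm2, Acta1, Plp2, Tmem14a, Pycard, Apol10a, Ms4a18 and Ppp1r1b. Pycard, the adaptor of inflammasomes, stood at 39.8 and 38.9 CPM in weak, 18.1 and 14.9 in strong and 43.9 and 44.8 in DMSO sums (1.26 ± 0.17), and Ppp1r1b, an inhibitor of protein phosphatase 1, at 63.8 and 62.7, 29.5 and 25.1 and 70.4 and 77.7 (1.22 ± 0.14). In both, the strong sums lay below the weak and the DMSO sums. The other 6 of these had log2 fold changes from 1.24 (Ms4a18) to 1.5 (Ifitm2), and Plp2 lost its call without replicate 2 (0.68).

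Genes of absorptive function were lower in weak than in strong cells in part. Of 15 tested enterocyte markers 6 were lower and none higher (median -0.24), of 14 lipid absorption genes 6 were lower and 2 higher (median -0.36), and of 18 brush border genes 5 were lower and 2 higher (median -0.05). Npc1l1, the cholesterol importer of the brush border, stood at 34.6 and 34.0 CPM in weak, 87.1 and 78.8 in strong and 88.3 and 84.4 in DMSO sums (-1.26 ± 0.12, adjusted p = 4.54e-08). Sis, the sucrase-isomaltase of the brush border, was at 137 and 126, 211 and 223 and 236 and 241 (-0.72 ± 0.09). For both, the weak sums lay below the strong and the DMSO sums. Apob, the core protein of chylomicrons, the triglyceride enzyme Dgat1 and the acyl-CoA synthetase Acsl5 had log2 fold changes of -0.60, -0.65 and -0.58.

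Cdhr2, a cadherin that links microvilli, was at 485 and 471 CPM in weak against 799.6 and 837 in strong sums (-0.77 ± 0.08), and Alpi, intestinal alkaline phosphatase, and Car1, a carbonic anhydrase, had -0.55 and -0.72. Krt18, an intermediate filament gene, was higher in weak cells, 676 and 628 against 366 and 421 CPM (0.73 ± 0.08). Fabp2, which carries fatty acids in the cytosol, did not pass (186 and 139 against 187 and 197 CPM, -0.24 ± 0.10, adjusted p = 0.0945), and with limits of 0.1% and 0.8% it was higher in weak cells (0.53, adjusted p = 0.0135), while without replicate 1 it was lower (-0.51). Apoa4, an apolipoprotein of lipid absorption, did not pass either (0.06 ± 0.16, adjusted p = 0.852). The mucin gene Muc3, the acute-phase gene Saa1 and the trypsin inhibitor gene Spink1 were lower, with -0.63, -0.98 and -1.16. Clca4a (273 and 137 against 339.7 and 344 CPM, -0.76 ± 0.13) was lower with both libraries but lost its call without replicate 2 (-0.33).

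Areg, Btc and Ereg, ligands of the EGF receptor, were lower in weak cells. Areg stood at 167 and 199 CPM in weak, 373 and 376 in strong and 24.8 and 32.1 in DMSO sums (-1.03 ± 0.08), and Btc at 8.64 and 10.7, 38.3 and 29.8 and 1.66 and 2.34 (-1.80 ± 0.21). Ereg and the chemokine gene Ccl20 had log2 fold changes of -1.03 and -1.19. Over that list of ligands and repair genes 4 of 12 were lower and 4 higher, so the direction was not common to the list. Of 19 glycolysis and hypoxia genes 4 were higher and 5 lower. Among the lower genes were the glucose transporter gene Slc2a1 (-0.58) and Hk2, hexokinase 2 (-0.68, not called with mitochondrial UMIs at most 10%).

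The remaining lists were split or nearly without calls. Of 16 tested NRF2 targets 5 were higher, Gsta4 (1.2) and Txn1 (0.58) among them, and 2 lower. The lowest was Slc7a11 (-1.40) and the highest Gsta1 (2.65), both described above, so lists share some members. Of 14 immediate early genes 5 were higher, Fos among them (0.85 ± 0.12), and 2 lower, the lowest being Atf3 (-0.97). Of 13 p53 targets 4 were higher and 1 lower, and of 23 histone genes, some of them near-identical copies, 3 went each way. Among 21 apoptosis regulators 2 were called in each direction, near the 8.49% higher and 9.56% lower over all tested genes. Bcl2l11 (0.96 ± 0.26) and Bmf (0.87 ± 0.29) were higher, and Cflar (-0.47 ± 0.12) and Xiap (-0.30 ± 0.10) lower. With 1 library left out, Bcl2l11 kept its call without replicate 2 only, Cflar without replicate 1 only and the other two in neither case, and DESeq2 called no gene of the list. A gene to which DESeq2 gave no adjusted p counts as not called here. Metallothioneins and acute-phase genes had 2 lower of 8, and the substrates of IRE1-dependent decay 1 lower of 4.

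Marker genes of other cell types were read beside these results. Of 7 tested stem and progenitor markers none was called by edgeR or DESeq2 (1 at an unadjusted edgeR p under 0.05). Of 19 proliferation genes only 4 could be tested, and 2 of those were higher. Levels on that list were mostly near 0: Mki67 stood at 0.960 and 0 CPM in weak and 0.518 and 0.946 in strong sums. Stmn1 had 16 and 6 UMIs in weak and 7 and 7 in strong sums, or 7.68 and 2.92 against 1.81 and 1.66 CPM. Hmgb2, of higher level, stood at 40.8 and 34.5 against 24.1 and 28.15 CPM. Pcna was at 37.9 and 32.6 against 32.1 and 35.25 CPM, and Tubb5 at 63.8 and 62.2 against 69.2 and 63.9. Among 10 tested goblet markers Agr2 and Tff3 were higher and Fcgbp lower, and the libraries disagreed. Tff3, a peptide of mucus, stood at 2172 and 758 CPM in weak and 673 and 1000.4 in strong sums, higher in replicate 1 and lower in replicate 2 (0.72 ± 0.24; -0.41 without replicate 1), and 5 cells held 73.7% and 65.0% of its weak UMIs. Fcgbp, a mucus-binding protein, was at 1538 and 992 and 1676 and 1809.7 CPM (-0.47 ± 0.11; -0.14 and not called without replicate 2). The part of goblet transcripts in the other differences was not tested. The medians of the chaperone and degradation lists stayed below 0, and that of the ribosomal proteins above 0, with either library left out.

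Against DMSO, the weak cells were higher in genes of the unfolded protein response, Pdia6 and Ddit3 among them, and lower in enterocyte markers. Of 10523 genes tested, 1314 were higher in weak cells than in DMSO enterocytes (12.5% of tested genes) and 1313 lower (12.5%), a 50.0% share of higher calls that became 60.5% (1591 and 1037) with scaling by total counts. Strong cells against the same DMSO libraries had 2129 higher (20.2%) and 2196 lower (20.9%). The comparisons share their DMSO libraries, so their values are given side by side and no overlap is read from them. Fewer UMIs lay behind the weak sums, so the counts of the 2 classes are not compared.

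The chaperone list rose in weak cells with a median log2 fold change of 1.25 (22 of 24 higher, none lower), against 2.49 in strong cells (23 higher). The ATF4 and CHOP list rose by a median of 1.78 in weak (15 of 18 higher) and 2.32 in strong cells (18 of 18), and amino acid synthesis and transport by 2.07 and 2.65 (19 of 19 higher in each). Median values for tRNA synthetases were 0.98 and 1.31, with 14 and 16 of 20 higher, and for translocation genes 0.52 and 1.29, with 21 and 27 of 31. The chaperone medians of the classes thus lay farther apart than those of the ATF4 genes, a difference between lists that was not tested. Hspa5, which chose the classes, is itself a chaperone gene.

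**Figure D4:**
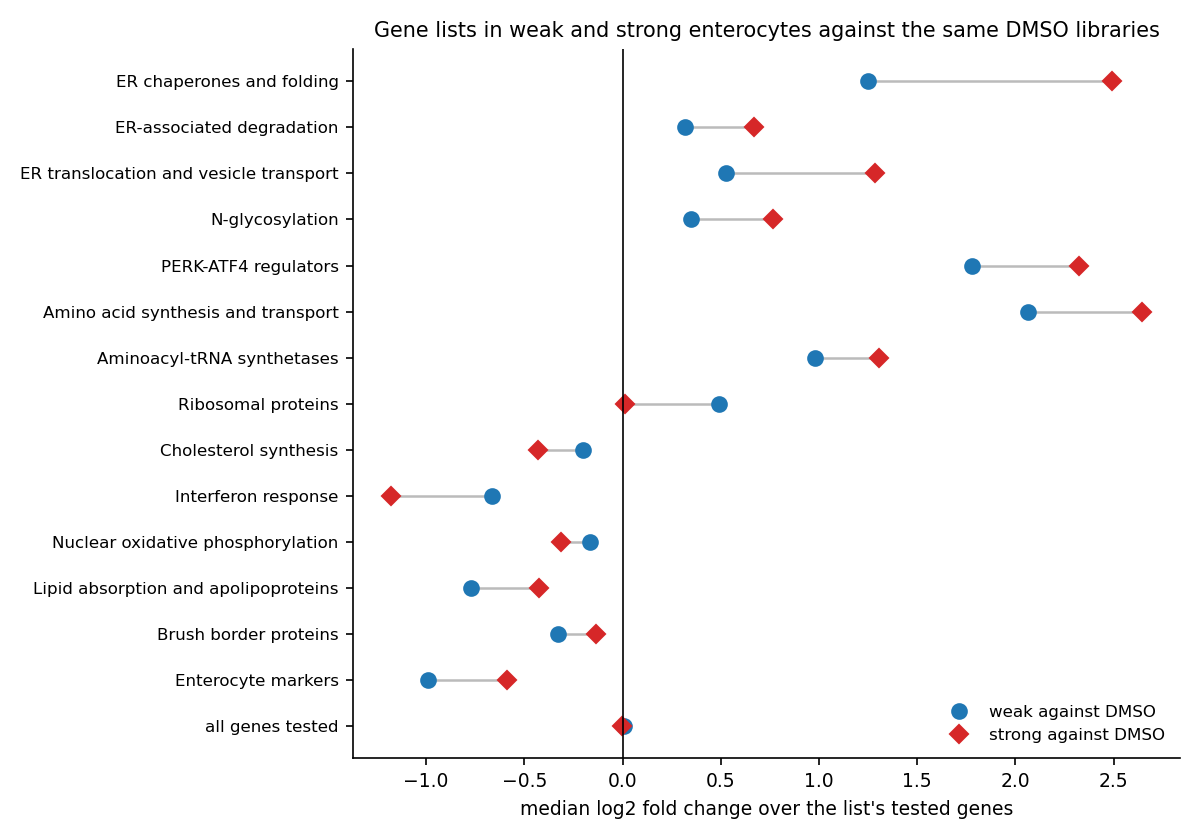
Median log2 fold change of each gene list in weak (circles) and strong (diamonds) enterocytes against the same 2 DMSO libraries, over the list's tested genes. The circle of ER chaperones lies at 1.25 and its diamond at 2.49, while the ribosomal circle (0.49) lies above its diamond (0.01).

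Pdia6 was at 25.3 and 29.1 CPM in DMSO, 270.2 and 393 in weak and 865 and 932 in strong sums, a log2 fold change against DMSO of 3.61 ± 0.13 in weak and 5.05 ± 0.12 in strong cells. For Hsp90b1 these were 2.22 ± 0.10 and 4.27 ± 0.10, and for Ddit3 3.24 ± 0.11 and 4.65 ± 0.11. For Mthfd2 they were 2.47 ± 0.10 and 2.65 ± 0.08 and for Chac1 2.63 ± 0.17 and 2.71 ± 0.14, close together in the 2 classes. With Pdia6, Ddit3, Mthfd2 and Chac1, the genes Creld2 (2.46), Sdf2l1 (2.56), Nupr1 (3.01), Atf5 (2.96), Trib3 (2.73) and Areg (2.69) made up the 10 highest over DMSO by the naming rule. Hsp90b1 was not among them. The rule asks for a mean of at least 20 CPM and left out some larger rises, up to 5.54 in the degradation list. Atf6 did not pass in weak cells (0.10 ± 0.12, adjusted p = 0.654) and rose in strong cells (1.40 ± 0.08).

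Ribosomal protein mRNAs were higher than in DMSO in weak cells, 67 of 79 with none lower (median 0.49), whereas in strong cells 6 were higher and 2 lower (median 0.01). Rpl3 had 0.85 ± 0.06 in weak and -0.15 ± 0.06 in strong cells (adjusted p = 0.0623 in the latter). At 25 h the enterocyte sums held 13.9 and 15.2% of UMIs as ribosomal protein mRNA and 1.17 and 1.16% as chaperone mRNA, beside 11.2 and 12.6% and 0.732 and 0.898% in the weak cells at 13 h. The 25 h values are given as levels only.

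All 15 tested enterocyte markers fell in weak cells against DMSO (median -0.99), and 10 of 15 in strong cells (median -0.59). Fabp2 fell by 1.85 on the log2 scale in weak cells and by 1.62 in strong cells, from 623 and 554 CPM in DMSO. Sis fell by 0.86 in weak cells and did not pass in strong cells (-0.13 ± 0.06, adjusted p = 0.104). With Fabp2, the genes Spink1, Saa1, Slc5a1 (the sodium-glucose transporter), Fmo5, Slc43a2, Trdmt1, AY036118, Ifit1bl1 and Apoa1 made up the 10 lowest genes by the naming rule. That rule asks for a mean of at least 20 CPM, and their values ran from -2.02 (Spink1) to -1.51 (Ifit1bl1). Of these, Apoa1 (311 and 109.9 CPM in weak, 587 and 638 in DMSO sums) lost its call with DESeq2 and without 13 h replicate 2. Interferon genes fell in 11 of 17 cases in weak cells (median -0.67) and in 15 of 17 in strong cells (median -1.18). Cholesterol synthesis genes fell in 8 of 22 in weak cells (median -0.20) and in 16 of 22 in strong cells (median -0.43). Over all tested genes 12.5% were lower in weak and 20.9% in strong cells, so these counts are not compared between the classes.

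The weak cells were not uniform. They were cut into 4 steps of Hspa5 after their values had been seen, so what follows is a description with no test. CPM of genes in the steps were scaled to UMIs without Hspa5 and not by TMM, unlike the DMSO and strong sums beside them. In the lowest step, under 0.05% Hspa5, lay 32 and 24 cells. Their summed chaperone level was 0.338 and 0.418% of UMIs, beside 0.294 and 0.302% in DMSO, and their ribosomal protein level 6.76 and 9.35%, beside 8.15 and 8.15%. Hsp90b1 stood at 173 and 230.0 CPM in these cells and Pdia6 at 41.6 and 72.6, against 172 and 179.7 and 25.3 and 29.1 in DMSO sums. Their ATF4 and CHOP genes summed to 0.104 and 0.183%, above the 0.0581 and 0.0664% of DMSO, with Ddit3 at 243 and 455 CPM against 65.2 and 88.8. The interferon genes, at 0.0967 and 0.0971%, were near the 0.0894 and 0.0905% of DMSO. For the chaperones and the ATF4 and CHOP genes these cells were closer to DMSO in replicate 1 than in replicate 2.

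From 0.05% to 0.2% Hspa5 (97 and 100 cells) the chaperone and ribosomal levels were higher. Chaperones summed to 0.628 and 0.794% in the step from 0.05% to 0.1%, 0.803 and 0.965% from 0.1% to 0.15% and 1.04 and 1.14% from 0.15% to 0.2%, all below the 1.93 and 2.04% of strong cells. The ATF4 and CHOP genes reached 0.254 and 0.208%, 0.301 and 0.263% and 0.283 and 0.320% in these steps. Ribosomal proteins stood at 11.8 and 14.3%, 11.5 and 12.5% and 13.7 and 13.6%, above both DMSO and strong sums in every step. The interferon genes were at 0.0927 and 0.0484%, 0.0520 and 0.0469% and 0.0458 and 0.0422%, in the same order, beside 0.0527 and 0.0531% in strong cells. Replicate 1 in the lowest of these steps was above the strong sums, and every other value was below them. Chac1 was at 80.5 and 51.1 CPM and Mthfd2 at 129 and 148 over these cells, beside 62.2 and 63.2 and 134 and 131 in strong sums. Median UMIs were 14731 and 16119.5 below 0.05% and 14685 and 15059.5 above it.

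**Figure D5:**
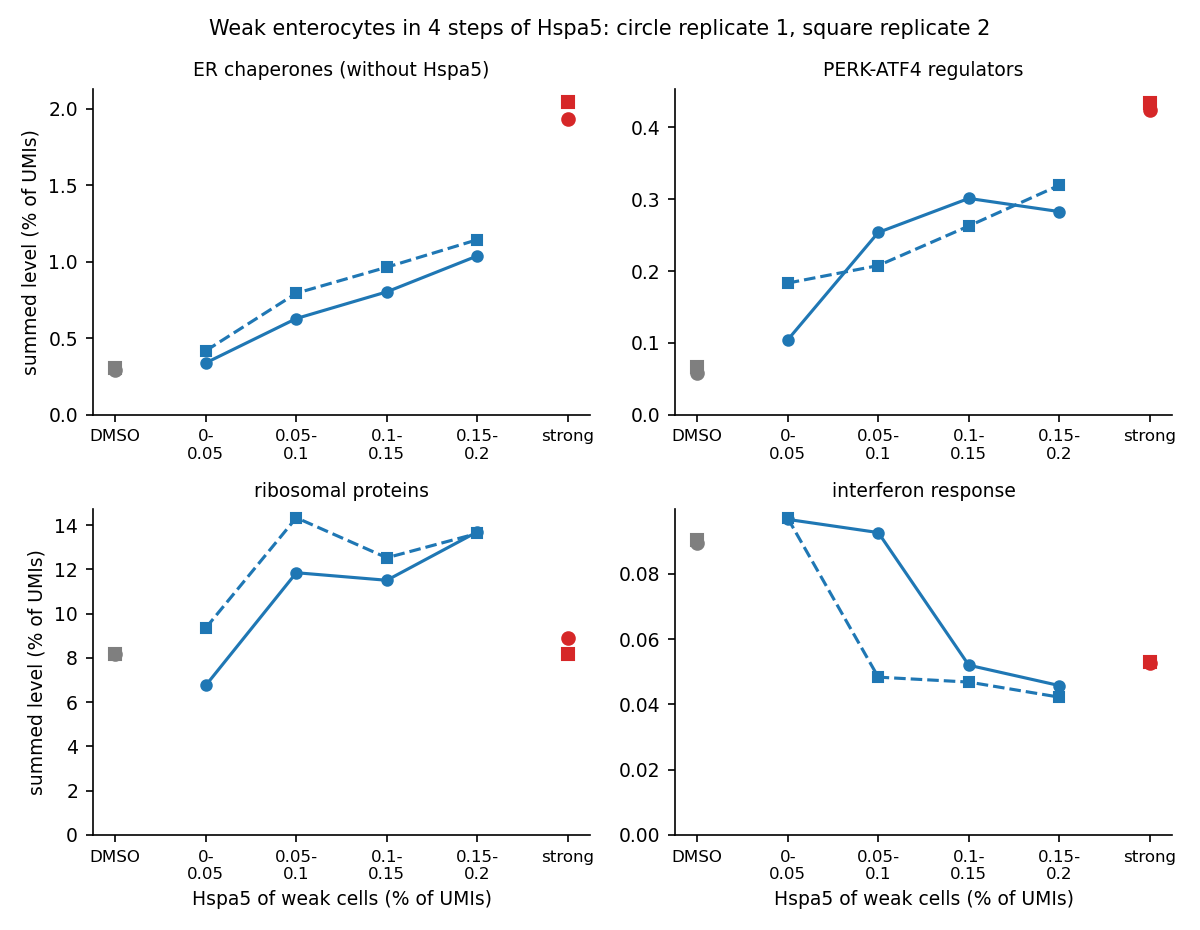
Summed level of 4 gene lists, as percent of UMIs without Hspa5, in weak enterocytes cut into 4 steps of Hspa5 (blue; circles and solid line replicate 1, squares and dashed line replicate 2), with DMSO (grey) and strong (red) sums. The lowest step lies near DMSO for chaperones and interferon genes; ribosomal proteins are highest in the upper 3 steps.

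Without the 13 h cells below 0.05% Hspa5, an alternative chosen after seeing the data, 22 of 23 chaperones remained lower in weak than in strong cells (median -1.05) and 77 of 79 ribosomal proteins higher (median 0.60). Over all tested genes 864 were lower and 708 higher in that setting. The ATF4 and CHOP list then had 8 lower and 1 higher of 18 (median -0.36), Atf4 (-0.20) and Atf5 (-0.40) lost their calls, Chac1 and Mthfd2 stood at 0.06 and 0.06 with no call, and the enterocyte markers had 10 lower of 15 (median -0.46), Fabp2 now among them (-0.69).

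Cell by cell, 51 of 129 and 25 of 124 weak cells had a chaperone level at or below 0.445% of UMIs, the 95th percentile of DMSO enterocytes, and no strong cell did (0 of 220 and 0 of 230). For the ATF4 and CHOP list the 95th percentile of DMSO was 0.154%, and 50 and 41 weak and 8 and 14 strong cells lay at or below it. Conversely 21 and 22 weak cells were at or above the strong median of the ATF4 and CHOP list, and 0 and 2 at or above the strong median for chaperones. Hspa5, which chose the cells, is itself a chaperone gene. The ATF4 and CHOP list also made up a smaller share of UMIs, so its values per cell carry more counting error. The difference between the 2 lists was not tested. In ribosomal protein level 66 of 129 and 99 of 124 weak cells were at or above the strong median of their library.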

How the data were processed

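Single-cell mRNA was measured with 10x Genomics 3′ V2 chemistry, per the labels. The authors deposited 1 matrix of raw UMI counts for 27998 genes and 5122 cells of 6 libraries. Cell Ranger (version: not given in the sources used here) and mm10 were used, per the submitters' processing notes. No source used here says how cells were filtered or classed. The deposited cell names give library and class. Symbols came from a GENCODE gene table and matched 27637 identifiers.

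Here 96 cells above 25% mitochondrial UMIs were left out and counts were summed per library and Hspa5 class. The 6 sums of 13 h enterocytes (9699 genes, library as a block) and the 10 sums of all enterocytes (10523 genes, no block) were each fitted with edgeR 4.0.16 in R 4.3.3 (TMM, filterByExpr, quasi-likelihood F test, Benjamini-Hochberg, adjusted p under 0.05), with Hspa5 removed. CPM are on the TMM scale of the 10 sums, while list levels are shares of UMIs without Hspa5. CPM of genes in the steps of Hspa5 were scaled to UMIs without Hspa5, with no TMM. Sums ran from 2038661 to 17429023 UMIs, so weak sums are the least precise. Doublets were called with Scrublet in scanpy 1.11.5 and kept. The fit of weak against strong sums was also run on simulated counts with known changes. These had no library effect and no choice of cells by a gene, so they cannot show how the p-values hold under either. DESeq2 1.42.0, other scalings, filters, limits and left-out libraries were alternatives.

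Genes were named by rule: the 15 highest and lowest log2 fold changes of weak against strong and the 10 against DMSO (adjusted p under 0.05, mean of at least 20 CPM, sums not overlapping), up to 4 members of each of 38 lists by adjusted p, and 21 genes set by name. Of the 15 highest, 1 gene is not reported here. The cells, lists and genes were chosen with earlier results of these data known. Motif windows, genes outside that rule and the steps of Hspa5 were chosen after values were seen.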

Additional observations from a re-analysis of the deposited data

How the results depend on the processing

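Counts of genes between weak and strong cells moved by more than 1.5 times under several alternatives. The 823 higher and 927 lower genes became 257 and 393 with DESeq2, 498 and 617 with mitochondrial UMIs at most 10%, and 355 and 434 with each cell thinned to 5000 UMIs. With 1 of the 13 h libraries left out they ran from 327 to 431 higher and from 565 to 634 lower; the single sum left in a class was then assumed to vary like the other groups. Other scalings, no filter on low counts, other limits and leaving out doublets kept both counts within 1.5 times. Against DMSO, the 1314 higher and 1313 lower genes of weak cells became 653 and 666 after thinning and 386 and 493 with limits of 0.1% and 0.8%, and ran from 687 to 1096 and from 777 to 1126 with 1 library left out, lowest without 13 h replicate 2. Those of strong cells became 1109 and 1280 after thinning. The share of weak cells in replicate 2 was 21.0% with mitochondrial UMIs at most 10%, against 17.1%.

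Of the 115 genes named between weak and strong cells, 38 changed their call or direction under at least 1 alternative. Directions turned in Chac1, Mthfd2, Apoa4, Agr2, Fabp2, Tff3 and Muc2. Chac1 stood at 0.0050 with mitochondrial UMIs at most 10%, 0.0589 without the 13 h cells below 0.05% Hspa5, and from -0.36 to 0.13 with 1 library left out, and Mthfd2 at 0.0604 without those cells. Apoa4 stood at -0.0307 after thinning, -0.0901 with limits of 0.1% and 0.8%, -0.46 with the lowest and highest 25% of cells, -0.18 without the cells below 0.05%, and from -0.65 to 0.66 with 1 library left out. With the limits of 0.1% and 0.8% Agr2 was at -1.10 and Fabp2 at 0.53. With 1 library left out Tff3 ran from -0.41 to 1.68 and Muc2 from -2.48 to 0.46. DESeq2 did not call Atf5, Ppp1r15a, Hsp90aa1, B2m, Agr2, 2210407C18Rik, Car1, Clca4a, Tff3, Fcgbp, Cflar or Xiap. It gave some other named genes no adjusted p, and those were not compared in that setting. Against DMSO, Atf6 in weak cells stood at -0.0815 with mitochondrial UMIs at most 10% and from -0.0024 to 0.17 with 1 library of 13 h left out. Rpl3 in strong cells was called lower under 5 alternatives, thinning and other limits among them. The cause of these changes was not tested.

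Weak and strong cells of 1 library share that library, which was the block in their comparison; with no replicate block 764 genes were higher and 884 lower. For DMSO the replicate numbers are only shared. Deviations of same-numbered sums from their group means correlated with those of DMSO at 0.06 (weak) and 0.0048 (strong) over 5078 genes. A replicate block gave 1306 and 1288 genes for weak and 2081 and 2164 for strong cells. Weak, middle and strong sums of 1 library, however, entered the fit against DMSO as if independent. Their deviations correlated at 0.12 (weak and middle), 0.056 (weak and strong) and 0.15 (middle and strong). Depth limits the weak sums most, which hold 129 and 124 cells, and genes of low level did not pass the filter.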
